A study of Mus musculus with 4 samples.

Results

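Loss of p53 in blood-forming cells that still have Aspp1 was read from a pair of arrays, 1 of p53-/- cells and 1 of wild-type (WT) cells, out of 4 arrays in the series. The unit of description was the gene: 13690 of the 22221 named genes on the array had a probe well above background on both arrays, and each was given by its log2 signal on the p53-/- array minus that on the WT array. The cells were lineage-negative, Sca-1-positive, c-Kit-positive (LSK) cells sorted from bone marrow, a fraction rich in blood stem cells and early progenitors. For every genotype the RNA of 3 mice was combined and labelled in 1 colour for 1 array, so no difference here has a spread between replicates or a p-value, and sizes only are given.

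The p53-/- cells came from Mx1-Cre(+)p53flox/flox mice, in which Cre recombinase is driven by the interferon-responsive Mx1 promoter and removes the floxed p53 segment after injection of pIpC, a double-stranded RNA analogue. No Mx1-Cre is given for the WT mice, which were injected as well. A further pair of arrays, which shares no array with the first, held cells of Mx1-Cre(+)Aspp1-/-p53flox/flox mice (Aspp1-/-p53-/-) and of Aspp1-/- mice, and served as a reading of p53 loss without Aspp1. All mice were male C57BL/6, received 5 injections from 8 weeks of age given every other day, and their cells were taken at 12 weeks, 4 weeks after the treatment. The stated dose was 402 µg for p53-/-, 400 µg for WT, 403 µg for Aspp1-/-p53-/- and 401 µg for Aspp1-/- mice in the sample labels, whereas the series design gives 400 µg for all. Both arrays of mice with Mx1-Cre lay in row 2 of the slide and both other arrays in row 1, so the loss of p53, Mx1-Cre and slide row cannot be told apart in either pair.

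p53, encoded by Trp53, is a transcription factor that is kept scarce by the ubiquitin ligase Mdm2 and accumulates after DNA damage and other stress. It then switches on genes that stop the cell cycle, such as Cdkn1a, and genes that start apoptosis, such as Bbc3 and Pmaip1. In blood stem cells it is known for limiting self-renewal and for holding cells in quiescence, and Aspp1, encoded by Ppp1r13b, binds p53 and favours its pro-apoptotic targets.

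Of the probes on each array, 51.2% were well above background on the p53-/- array and 53.3% on the WT array, and no spot was saturated. The processed signal at the 75th percentile of probes, which was subtracted on the log2 scale, was 512 on the p53-/- array and 502 on the WT array. Markers of the sorted cells, such as Kit, Ly6a and Cd34, were well above background on both arrays for 7 of 7 genes, with a summed signal of 181731 on the p53-/- array and 181838 on the WT array. Among markers of other cells, those well above background on both arrays were 5 of 5 for granulocytes, 4 of 5 for monocytes and dendritic cells, 3 of 3 for megakaryocytes, 3 of 5 for the B lineage, 3 of 6 for T and natural killer cells, 2 of 4 for erythroid cells, 2 of 3 for mast cells and 2 of 4 for stroma and endothelium. The summed granulocyte signal was 69592 on the p53-/- array and 77479 on the WT array, and that of the B lineage was 632 on the p53-/- array and 523 on the WT array. Pax5, Ms4a1, Cd3g, Cd8a, Ncr1, Alas2, Cma1, Col1a1 and Cdh5 were not well above background on either array.

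The targeted gene was low on the array of cells without p53. Its probe has the sequence below, shown because it is the check of the genotype, and lies on the plus strand of chromosome 11 at chr11:69404204-69404263 (mm9).
Trp53 probe: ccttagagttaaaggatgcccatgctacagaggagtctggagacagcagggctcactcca
The probe read 164 on the p53-/- array, against 730 on the WT array, a log2 difference of −2.19 or 4.55-fold, and the scanner's error model puts 0.21 on it. Without Aspp1 it read 169 on the Aspp1-/-p53-/- array, against 820 on the Aspp1-/- array, a difference of −2.13. Trp53 had the third largest fall of all measured genes, and the remaining signal was still well above background. Which part of Trp53 the floxed allele spans, and whether the probe lies in it, is not stated in any source used here. In a pool of sorted cells, fewer cells with a transcript and less transcript per cell cannot be told apart.

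Other genes of the p53 family and its ASPP partners gave differences of −0.19 to 0.02. Ppp1r13b read 12759 on the p53-/- array, against 13182 on the WT array (−0.08), while the arrays of Aspp1-/- background read 2060 for Aspp1-/-p53-/- and 2247 for Aspp1-/-. Trp63 differed by −0.19, Trp53bp2, which encodes ASPP2, by −0.07, Trp73 by −0.05 and Ppp1r13l, which encodes the inhibitory ASPP, by 0.02. The further Trp63 and Trp73 probes were not well above background on any array. These differences were within the scanner's error of a single gene, and the Ppp1r13b signal followed the Aspp1 genotype.

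**Figure D1:**
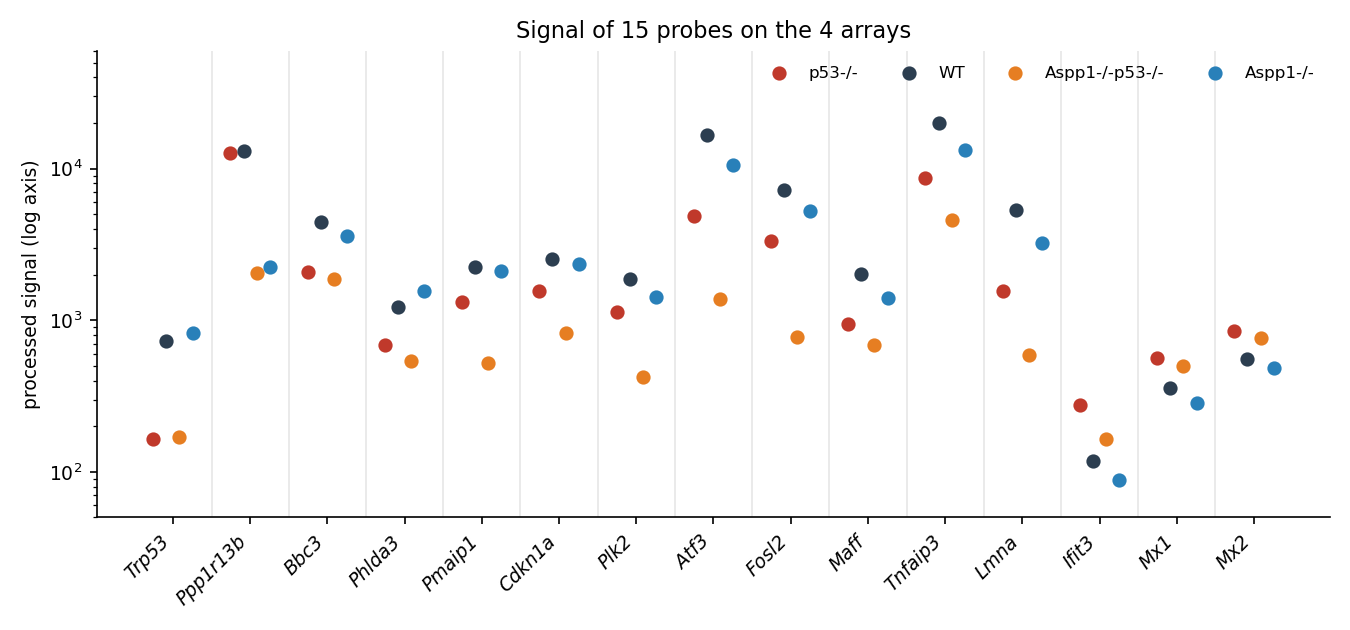
Processed signal (log axis) of 15 probes on the p53-/-, WT, Aspp1-/-p53-/- and Aspp1-/- arrays, 1 point per array. Trp53 sits near 170 on both arrays without p53 and at 730 or more on the others, Ppp1r13b is high on the arrays with Aspp1, and Lmna, Atf3 and Fosl2 are lower on each array without p53 than on its partner.

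Across all 13690 genes the median difference was 0.02 with a standard deviation of 0.25, 97.1% of genes lay within 1.5-fold, and 57.3% lay above 0. A change was called where the difference was at least 2-fold. By this rule 69 genes rose (0.504% of those measured) and 59 fell (0.431%). At 1.5-fold, which is used below as a second, looser size, 198 were higher (1.45%) and 201 lower (1.47%). The scanner's error of a single difference had a median of 0.20 and covers the spot only, not mice or labelling.

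Genes that rose and genes that fell differed in brightness. The 69 risen genes had a median signal of 171 on the p53-/- array and 41 on the WT array, and 55 of them were under a signal of 100 in WT. The 59 fallen genes had a median of 127 on the p53-/- array and 288 on the WT array, and 33 of them were at 100 or more on both arrays, against 14 of the risen genes. Rises were thus mostly among probes dim in WT, while the falls extended to brighter probes, up to 14239 on the p53-/- array and 36103 on the WT array for Rgcc, a regulator of the cell cycle.

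**Figure D2:**
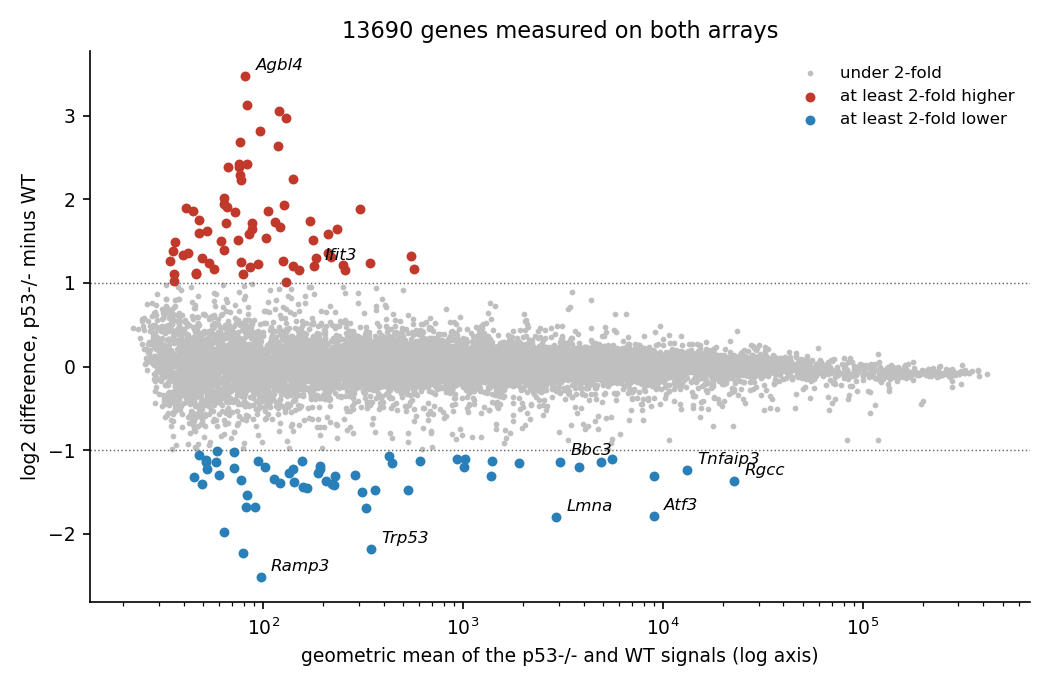
Log2 difference, p53-/- minus WT, against the geometric mean of both signals (log axis) for the 13690 measured genes, with the 69 risen genes in red and the 59 fallen genes in blue. The red points gather at low signal, and blue points such as Lmna, Atf3, Tnfaip3 and Rgcc lie farther to the right.

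The p53 targets with a known part in apoptosis were mostly lower without p53. Of 18 listed genes 17 were measured. Of these, 13 lay below 0 (76.5%, beside 42.7% of all genes), with a median of −0.15 beside 0.02 for all genes. Bbc3, which encodes the BH3-only protein Puma, was the member that fell: it read 2073 on the p53-/- array, against 4472 on the WT array (−1.14, 2.20-fold), and without Aspp1 1870 on the Aspp1-/-p53-/- array, against 3574 on the Aspp1-/- array (−0.78). Both arrays without p53 were thus below both arrays with it. Phlda3, a repressor of Akt that competes for membrane lipids, read 686 on the p53-/- array, against 1229 on the WT array (−0.87), and 538 for Aspp1-/-p53-/-, against 1558 for Aspp1-/- (−1.38). Pmaip1, which encodes the BH3-only protein Noxa, read 1312 on the p53-/- array, against 2232 on the WT array (−0.80), and 526 on the Aspp1-/-p53-/- array, against 2100 on the Aspp1-/- array (−1.84). These 3 genes separate the arrays with and without p53 with no overlap, and the same was true of Zmat3, an RNA-binding protein, at 120 and 116 on the arrays without p53, against 191 and 208 on those with it (−0.70 and −0.68). These genes had the largest falls of the list in p53-/- against WT, so that part of the order goes with how they were picked. How many of all measured genes separate the arrays in this way was not counted, for these genes or for those below. Tnfrsf10b, a death receptor for Trail, was at 672 on the p53-/- array, against 995 on the WT array (−0.60), and −0.45 in the pair without Aspp1.

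The other apoptosis targets lay within 1.5-fold. Perp, a membrane protein, was at −0.31, Trp53inp1, a stress-induced nuclear protein, at −0.29, Bax, the pore-forming effector of mitochondrial apoptosis, at −0.15, and Apaf1, the core of the apoptosome, at −0.09. Those above 0 were Casp1 at 0.05, Siva1 at 0.07, Bid at 0.11 and Pidd1 at 0.16. Fas, the receptor of Fas ligand, read 53.4 on the p53-/- array, against 67.4 on the WT array (−0.36), whereas in the pair without Aspp1 it read 127 on the Aspp1-/-p53-/- array, against 47.6 on the Aspp1-/- array (1.57). Its probe was dim, and it was the p53 target past 2-fold in that pair with the opposite sign here.

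Targets in arrest and growth control had the lowest median of the p53 lists, −0.32, with 12 of 14 measured members below 0 and none at 2-fold. Plk2, a polo-like kinase, read 1138 on the p53-/- array, against 1867 on the WT array (−0.74), and 420 on the Aspp1-/-p53-/- array, against 1432 on the Aspp1-/- array (−1.61). Cdkn1a, the cyclin-dependent kinase inhibitor p21, read 1551 on the p53-/- array, against 2530 on the WT array (−0.73), and 818 on the Aspp1-/-p53-/- array, against 2345 on the Aspp1-/- array (−1.36). For both genes the lowest signal was on the Aspp1-/-p53-/- array. The mean of the 2 measured Cdkn1a probes gave −0.45 in p53-/- against WT, so the probes of this gene did not give the same size. A further Cdkn1a probe was not well above background on either array, at 5.4 on the p53-/- array and 9.4 on the WT array. Plk3 at −0.46, the antiproliferative genes Btg2 at −0.45, Tob1 at −0.37 and Btg1 at −0.35, and Sfn, which encodes 14-3-3 sigma, at −0.35 followed. Ccng1, cyclin G1, was at −0.30, and Gadd45a, a growth arrest gene of the DNA damage response, was at 0.20.

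A promoter window of Cdkn1a is shown because it was the 1 window, among 73 windows of 51 p53 target genes, in which a pair of p53 half-sites was found. Which start site the measured Cdkn1a transcripts came from was not examined. The window runs from 250 bases before to 50 after the start site (RefSeq, GRCm38.p6, chr17:29090729-29091028, plus strand), and the capitals mark the pair, which starts at position −73.
Cdkn1a promoter: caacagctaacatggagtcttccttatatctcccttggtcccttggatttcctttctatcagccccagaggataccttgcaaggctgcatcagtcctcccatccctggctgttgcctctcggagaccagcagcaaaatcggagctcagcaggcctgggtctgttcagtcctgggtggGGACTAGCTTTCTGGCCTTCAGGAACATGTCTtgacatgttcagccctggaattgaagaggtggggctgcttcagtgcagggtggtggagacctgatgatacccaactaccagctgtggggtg
The p53 half-site was searched as its 10-base consensus on both strands, and a pair as 2 of these with 0 to 13 bases between them. A half-site was present in 18 of 73 promoters of p53 targets (24.7%), against 8.36% of all 32851 promoters, and a pair in 1.37%, against 0.0731%. Genes with a half-site included Bax, Ccng1, Gtse1, Mdm2 and Sesn1 besides Cdkn1a, and their differences were between −0.73 for Cdkn1a and 0.20 for Gadd45a, another gene with a half-site. A match in the window is a description of the letters and not a bound site. In the Cdkn1a window, the 10 bases directly after the capitals, tgacatgttc, depart from the consensus at their first base alone. They were therefore not counted, and the capitals mark only what met the search rule. Which of these stretches p53 uses was not tested.

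Targets that feed back on p53 and those in metabolism and repair gave small differences. Mdm2 read 11440 on the p53-/- array, against 13188 on the WT array (−0.23), and 9814 on the Aspp1-/-p53-/- array, against 12795 on the Aspp1-/- array (−0.23). The other measured feedback genes were between 0.02 for the phosphatase gene Ppm1d and 0.28 for the ubiquitin ligase gene Wwp1, and 5 of 6 lay above 0. Of the 22 measured metabolism and repair targets 11 lay below and 11 above 0, with a median of 0.00 and a range of −0.35 for Ddit4, an inhibitor of mTORC1, to 0.35 for the cytokine gene Lif. Sesn1 (−0.09), Sesn2 (−0.05), Tigar (0.06), Ddb2 (0.08) and Xpc (0.10) were among them.

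Over all 62 listed p53 targets, 59 were measured and 37 were below 0 (62.7%, beside 42.7% of all genes), with a median of −0.06. Among them 7 were at least 1.5-fold lower, 1 was at least 2-fold lower and none was 1.5-fold higher. Of all genes 1.47% were at least 1.5-fold and 0.431% at least 2-fold lower. In the pair without Aspp1 the 58 members measured had a median of −0.10, with 5 at least 2-fold lower and Fas at least 2-fold higher, and 41 of the 58 (70.7%) had the same sign in both pairs, beside 60.9% of all genes measured in both. In that pair 0.848% of 13557 genes were at least 2-fold lower and 0.509% at least 2-fold higher. The absolute difference was larger in the pair without Aspp1 for 37 of the 58 targets. The same held for 39 of 53 interferon-stimulated genes and 40 of 52 genes of the immediate-early lists, both described below. The share over all genes was not counted, so this is not a trait shown for p53 targets.

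Genes in the lists of immediate-early genes and related factors were lower on the p53-/- array as a group. Immediate-early genes are transcribed within minutes of a stimulus without new protein synthesis and encode transcription factors and their feedback inhibitors. Not every listed member is of this kind: the Kruppel-like factors include Klf1 (−0.04), also taken as an erythroid marker here. Of 56 genes in the lists of AP-1 subunits, EGR and NR4A factors, Kruppel-like factors and feedback and decay genes, 54 were measured. Of these, 45 lay below 0 (83.3%, beside 42.7% of all genes), with a median of −0.29. Among them 13 were at least 1.5-fold and 4 at least 2-fold lower, and none was 1.5-fold higher. Of all genes 1.47% were at least 1.5-fold and 0.431% at least 2-fold lower. In the pair without Aspp1, 43 of 52 lay below 0 with a median of −0.42, and 13 were at least 2-fold lower, beside 0.848% of all genes there. The sign was the same in both pairs for 44 of 52 (84.6%), beside 60.9% of all genes.

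Among the AP-1 subunits 10 of 12 lay below 0, with a median of −0.42, and 3 fell. Atf3, a stress-induced repressor and activator, read 4890 on the p53-/- array, against 16562 on the WT array (−1.79, 3.45-fold), and 1390 on the Aspp1-/-p53-/- array, against 10504 on the Aspp1-/- array (−2.76). Fosl2, a partner of Jun proteins, read 3327 on the p53-/- array, against 7200 on the WT array (−1.14), and 780 on the Aspp1-/-p53-/- array, against 5225 on the Aspp1-/- array (−2.59), while the mean of its measured probes gave −0.47 in p53-/- against WT. Maff, a small Maf protein, read 947 on the p53-/- array, against 2035 on the WT array (−1.13), and 684 on the Aspp1-/-p53-/- array, against 1408 on the Aspp1-/- array (−0.89). For all 3 both arrays without p53 read lower than both arrays with it. They were named for their fall in p53-/- against WT, so that part of the order was fixed by the choice. Jund was at −0.52, Fosb at −0.44, Jun at −0.41 and Fos at −0.30, genes whose probes were among the brightest measured, and Junb was at −0.03.

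Of the other factors, Nr4a2, an orphan nuclear receptor, read 4136 on the p53-/- array, against 7417 on the WT array (−0.87), and differed by −1.54 in the pair without Aspp1. Its relative Nr4a1 was at −0.45 and −1.32 in these pairs. Egr1 was at −0.29 and −0.75. Egr2, a zinc finger factor, was at 0.11 with Aspp1 present, where it read 2466 on the p53-/- array, against 2240 on the WT array, but at −1.94 in the pair without Aspp1, where it read 822 on the Aspp1-/-p53-/- array, against 3526 on the Aspp1-/- array. Kruppel-like factors lay below 0 in 12 of 12 measured members, with a median of −0.27 and none at 2-fold. Klf6 read 88348 on the p53-/- array, against 160000 on the WT array (−0.89), and Klf2, a factor known for keeping T cells quiescent, read 61743 on the p53-/- array, against 111203 on the WT array (−0.88). Klf9 was at −0.58 and Klf4 at −0.51.

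Feedback and decay genes had a median of −0.27, with 19 of 24 below 0. Tnfaip3, which encodes the NF-κB inhibitor A20, was the member that fell, with 8680 on the p53-/- array, against 20138 on the WT array (−1.24), and 4610 on the Aspp1-/-p53-/- array, against 13274 on the Aspp1-/- array (−1.37). Dusp5 and Dusp4, phosphatases of the kinase Erk, were at −0.85 and −0.79, and Zfp36l1, which speeds the decay of AU-rich mRNAs, was at −0.64. Rel, an NF-κB subunit, was at −0.93 on a dim probe that read 34.6 on the p53-/- array, against 64.6 on the WT array. Members above 0 included Myc at 0.28, Gadd45g at 0.16 and Dusp2 at 0.14. A CArG box, the serum response factor motif, was found on either strand in 6 of 57 promoters of these lists (10.5%), those of Dusp5, Egr2 and Zfp36, against 1.63% of all promoters.

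**Figure D3:**
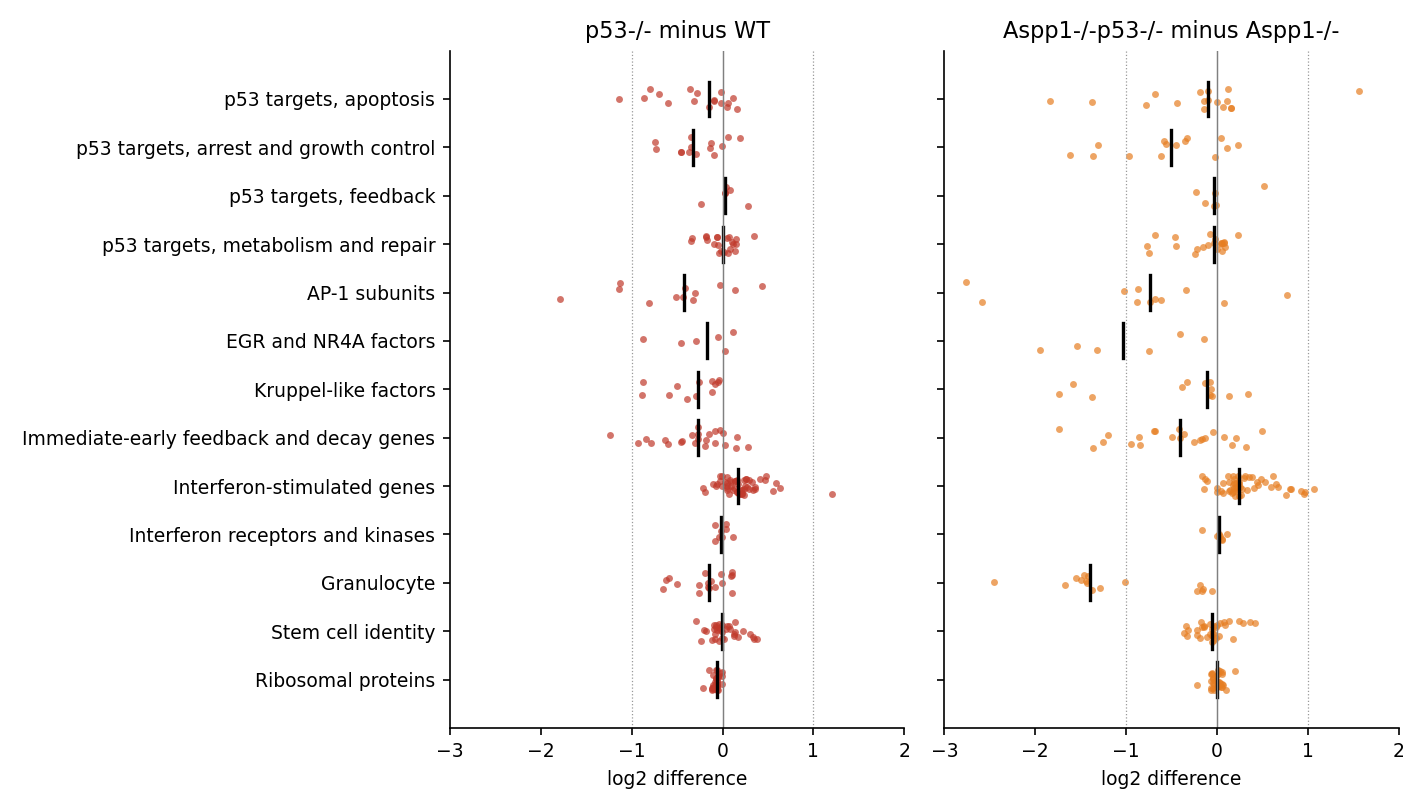
Log2 difference of each measured member of 13 gene lists, p53-/- minus WT on the left and Aspp1-/-p53-/- minus Aspp1-/- on the right, with a black bar at the median of each list. The medians of the immediate-early lists and the arrest targets lie left of 0 in both panels, that of interferon-stimulated genes lies right of 0 in both, and granulocyte genes are at a median of −0.15 on the left and −1.40 on the right.

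Interferon-stimulated genes were higher on the p53-/- array by a small amount spread over the list. These genes are switched on by type I interferon through a complex that holds Stat2 and Irf9, and include Mx1, whose promoter drives the Cre transgene of these mice. Of 54 listed genes 53 were measured, 44 lay above 0 (83%, beside 57.3% of all genes), 3 were at least 1.5-fold higher and 1 rose 2-fold, with a median of 0.17. In the pair without Aspp1 48 of 53 lay above 0 with a median of 0.24, and 45 of 53 (84.9%) had the same sign in both pairs. The mice of the p53-/- and Aspp1-/-p53-/- arrays carried Mx1-Cre, none is given for those of the other arrays, and all mice had received pIpC.

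Ifit3, which encodes an antiviral protein of the Ifit family, was the member that rose. It read 276 on the p53-/- array, against 117 on the WT array (1.20, 2.30-fold), and 165 on the Aspp1-/-p53-/- array, against 87.8 on the Aspp1-/- array (1.07). Mx1, a dynamin-like antiviral GTPase, read 564 on the p53-/- array, against 357 on the WT array (0.63), and 497 on the Aspp1-/-p53-/- array, against 284 on the Aspp1-/- array (0.97). Mx2, its relative, read 849 on the p53-/- array, against 554 on the WT array (0.59), and 762 on the Aspp1-/-p53-/- array, against 488 on the Aspp1-/- array (0.80). For all 3 genes each array without p53 was above both arrays with p53. They were the 3 members at least 1.5-fold higher in p53-/- against WT, so that part of the order was fixed by the choice. Rtp4 at 0.48, Ifi27l2a at 0.46 and Oas2, a sensor that activates RNase L, at 0.42 were also above 0, and Isg15, a ubiquitin-like protein, was at 0.36. Irf7, the factor that amplifies the response, was at 0.29, Irf9 at 0.22 and Stat2 at 0.21. Members below 0 included Cxcl10 at −0.22 and Irf1 at −0.20, genes also induced by interferon-γ. The 8 interferon receptors and kinases had a median of −0.01 and a range of −0.09 for Ifngr1 to 0.12 for Ifnar1.

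The promoter of Ifit3 is shown because it belongs to the interferon-stimulated gene that rose and holds 2 copies of the letters of an interferon-stimulated response element. It is given for RefSeq, GRCm38.p6, chr19:34583279-34583578, plus strand, and the capitals mark the matches, TTTC and again TTTC with any pair of bases (NN) between, which start at positions −156 and −122 from the start site.
Ifit3 promoter: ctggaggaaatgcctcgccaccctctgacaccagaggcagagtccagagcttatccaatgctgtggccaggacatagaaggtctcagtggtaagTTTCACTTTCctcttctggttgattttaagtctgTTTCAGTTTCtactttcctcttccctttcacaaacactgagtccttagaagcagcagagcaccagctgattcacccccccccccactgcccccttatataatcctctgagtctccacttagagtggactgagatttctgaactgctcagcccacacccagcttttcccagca
TTTC, NN and TTTC in a run, searched on both strands, was found in 23 of 49 promoters of interferon-stimulated genes (46.9%), against 3.44% of all promoters. Of the measured genes with a promoter in the table, the 21 with a match had a median difference of 0.17, with 17 above 0, and the 17 without one had a median of 0.10, with 14 above 0. The promoters of Gbp3, Gbp7, Irgm1 and Trim30a held both this match and a p53 half-site, and whether they overlap was not examined.

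The largest falls were on bright and on dim probes. Lmna, which encodes the nuclear lamins A and C, read 1570 on the p53-/- array, against 5376 on the WT array (−1.80, 3.49-fold), and 587 on the Aspp1-/-p53-/- array, against 3220 on the Aspp1-/- array (−2.30). The other 14 measured genes of the nuclear lamina list were all under 1.5-fold, from −0.35 for Syne1 to 0.11 for Zmpste24. Trp53inp2, an autophagy protein, read 320 on the p53-/- array, against 871 on the WT array (−1.47), and differed by −0.96 without Aspp1. Among the dim falls, Ramp3, a receptor activity-modifying protein, read 40.9 on the p53-/- array, against 230 on the WT array (−2.52), Slc44a1, a choline transporter, read 37.1 on the p53-/- array, against 171 on the WT array (−2.23), and Cyp2j7, a cytochrome P450, 32.5 on the p53-/- array, against 126 on the WT array (−1.99). The probes of Ramp3, Slc44a1, Iqcn (−1.69), Hey1 (−1.69) and Foxo6 (−1.53) behind these differences were not well above background on the Aspp1-/-p53-/- array. A further Slc44a1 probe read 26.3, not well above background, on the p53-/- array, against 30.3 on the WT array, and 110.3 on the Aspp1-/-p53-/- array, against 30.5 on the Aspp1-/- array. Cyp2j7 was at 0.18 in the pair without Aspp1, where both arrays were as dim as the p53-/- array.

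Gm5640 (−1.70), Gm5639 (−1.50) and DXBay18 (−1.48), on the X chromosome, fell together, and differed by −2.06, −2.19 and −1.87 in the pair without Aspp1. The probes of Gm5640 and Gm5639 were identical over 46 bases of 60, and those of Gm5640 and DXBay18 over 31 of 32 overlapping bases, while those of Gm5639 and DXBay18 shared 18 of 57. The Gm5640 signal is thus not independent of the other signals and cannot be assigned to 1 gene. The 2 further DXBay18 probes were at −1.59 and −1.53 in p53-/- minus WT. The list of largest falls also held 5830444B04Rik at −1.46, which was at 0.37 without Aspp1, and Atp1b2 at −1.44.

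The fallen and the risen genes were then read in the pair without Aspp1, on arrays that did not choose them. Of the 59 fallen genes 47 were measured there, 40 of them (85.1%) with the same sign, 33 at least 1.5-fold lower and 28 at least 2-fold lower, with a median of −1.26. Of the 69 risen genes 44 were measured, 32 (72.7%) with the same sign, 9 at least 1.5-fold higher and 6 at least 2-fold higher, with a median of 0.11. Of all genes measured in both pairs 60.9% had the same sign. In the pair without Aspp1 0.848% of all genes were at least 2-fold lower and 0.509% at least 2-fold higher. Mx1-Cre and slide row go with p53 loss in that pair too, so it does not separate them. With both signals at 100 or more, 23 of 33 fallen genes were at least 2-fold lower in the other pair, and 1 of 14 risen genes at least 2-fold higher. Further probes of the same genes on the same arrays had the same sign for 13 of 17 (76.5%) among the falls and 7 of 12 (58.3%) among the rises. Of these probes, 9 of 17 among the falls and 2 of 12 among the rises were at least 1.5-fold the same way.

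**Figure D4:**
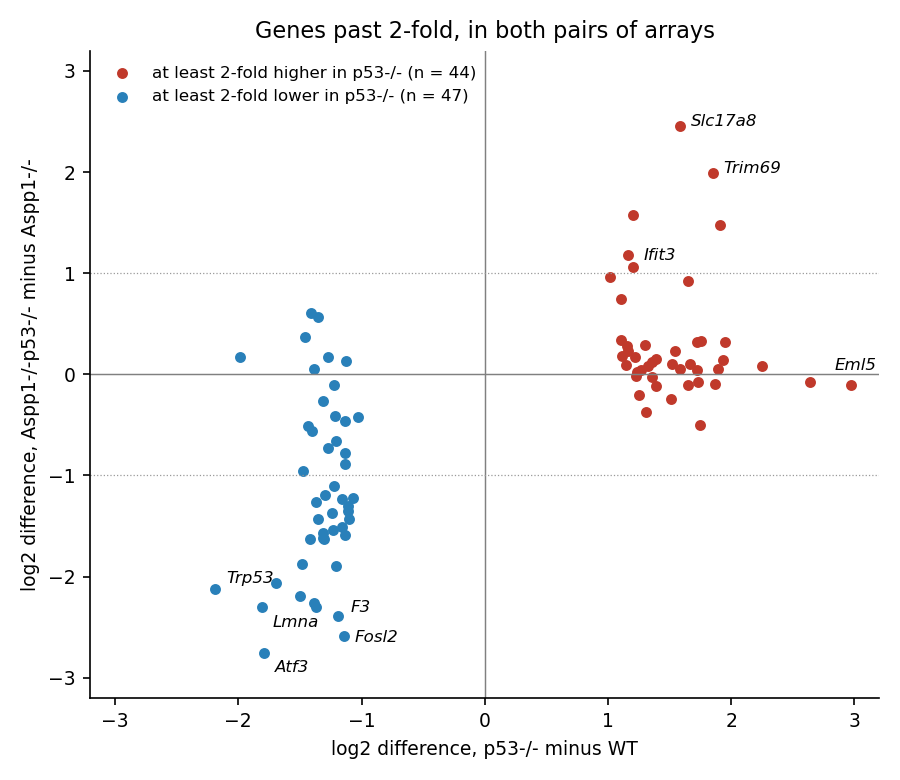
Log2 difference in Aspp1-/-p53-/- minus Aspp1-/- against that in p53-/- minus WT for the genes at least 2-fold higher (red, n = 44) or lower (blue, n = 47) in p53-/- cells and measured in both pairs. Most blue points lie below 0 and 28 below −1, whereas most red points lie near 0 on the vertical axis.

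The 28 genes that fell in both pairs, named here after their values were seen, fall into several kinds, and those named are given by their difference in p53-/- minus WT and then in Aspp1-/-p53-/- minus Aspp1-/-. Transcription regulators included Trp53, Atf3, Fosl2, Crem, a cAMP-responsive factor, at −1.16 and −1.51, Skil, a repressor of Smad signalling, at −1.31 and −1.57, and Insm1 at −1.23 and −1.54. Signalling inhibitors and feedback genes were Tnfaip3, the MAP kinase phosphatase gene Dusp10 at −1.37 and −1.26, the pseudokinase gene Trib1 at −1.16 and −1.24, and the cAMP phosphodiesterase gene Pde4b at −1.11 and −1.35. Rgcc read 14239 on the p53-/- array, against 36103 on the WT array (−1.37), and 5373 on the Aspp1-/-p53-/- array, against 29539 on the Aspp1-/- array (−2.30). Surface and secreted proteins were Cd28, a T cell costimulatory receptor, at −1.21 and −1.90, Il1r2, the decoy receptor of interleukin-1, at −1.30 and −1.63, Jag2, a Notch ligand, at −1.10 and −1.43, F3, tissue factor, at −1.19 and −2.39, Adgre5 at −1.31 and −1.62, and Cxcl12, a stromal chemokine that attracts stem cells, at −1.35 and −1.43. The others, besides Lmna and the X-linked genes, were Mlf1 (−1.41 and −1.62), Apold1 (−1.38 and −2.27), Chac1, an enzyme that degrades glutathione (−1.30 and −1.20), Tppp3 (−1.22 and −1.10), Ppp2r3d (−1.11 and −1.30) and Coq10b (−1.07 and −1.22). Further measured probes in p53-/- minus WT were under 2-fold for Ppp2r3d (−0.18), Coq10b (−0.55), Apold1 (−0.45) and Crem (−0.91). The same held for Pde4b (−0.31 and −0.68) and Fosl2 (0.19). Those of Trib1 gave −0.64 and −1.15, that of Skil −1.45, and those of DXBay18 were past 2-fold.

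The largest rises were on probes dim on every other array. Agbl4, a deglutamylase of tubulin, read 275 on the p53-/- array, against 24.2 on the WT array (3.48, 11.2-fold), and 5.8 and 5.6 on the Aspp1-/-p53-/- and Aspp1-/- arrays, neither well above background. Eml5, a microtubule-associated protein, read 369 on the p53-/- array, against 46.1 on the WT array (2.97), and 38.6 on the Aspp1-/-p53-/- array, against 46.2 on the Aspp1-/- array (−0.10). Xcl1, lymphotactin, read 197 on the p53-/- array, against 30.0 on the WT array (2.68), and 6.9 on the Aspp1-/-p53-/- array, against 23.3 on the Aspp1-/- array. Each of these was high on 1 array of the 4. The same held for Wdr17 (3.13), Cypt15 (3.05), Pilra, an inhibitory immune receptor (2.83), 4930402H24Rik (2.64), Zfp423 (2.43), Otog (2.42), Inpp5j (2.39), the sperm protamine gene Prm1 (2.39), Carmil3 (2.29), Rergl (2.25), Lrrc73 (2.23) and Etl4 (2.02), whose probes behind these differences had no signal above 60 on an array without Aspp1. Further probes of these genes that were measured on both arrays did not repeat the rise: those of Pilra gave −0.24 and 0.03, that of 4930402H24Rik −0.21, that of Zfp423 −0.17, that of Carmil3 0.15 and that of Etl4 −0.01. The 3 further Agbl4 probes were not well above background on any array.

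Rises that were also at least 2-fold in the pair without Aspp1 were Slc17a8, a vesicular glutamate transporter, Trim69, 9130019O22Rik, C5ar2, a receptor of the complement fragment C5a, Fam199x and Ifit3, chosen after their values were seen. With the normexp background correction, which shrinks differences of dim probes, 0 genes were at least 2-fold higher in both pairs, and in p53-/- against WT Ifit3 was at 0.93, Slc17a8 at 0.81, Trim69 at 0.89 and C5ar2 at 0.89. Slc17a8 read 149 on the p53-/- array, against 48.7 on the WT array (1.59), and 231 on the Aspp1-/-p53-/- array, against 47.0 on the Aspp1-/- array (2.45). Trim69 read 138 on the p53-/- array, against 37.5 on the WT array (1.85), and 157 on the Aspp1-/-p53-/- array, against 44.1 on the Aspp1-/- array (1.99). C5ar2 read 215 on the p53-/- array, against 91.6 on the WT array (1.21), and 352 on the Aspp1-/-p53-/- array, against 132 on the Aspp1-/- array (1.57). In each, both arrays without p53 were above both arrays with p53. The genes were chosen as at least 2-fold higher in both pairs, so this order follows in large part from the choice. A further probe of 9130019O22Rik was at 1.16 beside 1.91, and a further one of C5ar2 at 0.69. Another 9130019O22Rik probe and the further Slc17a8 probe were not well above background on any array.

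Where a probe passed the background test on 1 array and not the other, a bound only can be given, computed against the higher of the dim probe's signal and the lowest signal well above background on that array. Sat2, a member of the spermidine and spermine acetyltransferase family, read 915 on the p53-/- array, against 17.3 on the WT array, where it was not well above background, which makes it at least 48.4-fold higher. It also read 789 on the Aspp1-/-p53-/- array, against 16.1 on the Aspp1-/- array. This Sat2 probe (chr11:69437312-69437371, mm9, plus strand) lies 33.1 kb from the Trp53 probe, and a further Sat2 probe was not well above background on any array, at 23.2 on the p53-/- array and 3.9 on the WT array. The other 4 largest bounds on the high side were Olfr463 at 462, Tnxb at 430, Spdye4b at 426 and Rpl10l at 405 on the p53-/- array, against signals not well above background in WT. On the Aspp1-/-p53-/- and Aspp1-/- arrays Olfr463, Spdye4b and Rpl10l were not well above background, and Tnxb read 17.0 on the Aspp1-/-p53-/- array, where it was not, against 34.9 on the Aspp1-/- array. Those on the low side were Abhd11os, Olfr715b, Ubxn10, S100a3 and Ssx9, with 322, 296, 248, 241 and 226 on the WT array.

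Most other genes near Trp53 differed little between p53-/- and WT. Of 77 measured genes within 1000 kb of the Trp53 probe, Trp53 apart and each read by its brightest probe, the median was 0.01, 53.2% were above 0, and 1 was past 2-fold. Dvl2 was at 0.02 by its brightest probe, but a dimmer one read 259 on the p53-/- array, against 25.4 on the WT array (3.32). The gene past 2-fold by its brightest probe was Atp1b2, a subunit of the sodium pump, 9.0 kb from the Trp53 probe. It read 96.9 on the p53-/- array, against 257 on the WT array (−1.44), and 107.4 on the Aspp1-/-p53-/- array, against 170.8 on the Aspp1-/- array (−0.51). Fgf11 was at 0.61, Tnk1 at 0.47, Efnb3 at 0.32, Tmem88 at −0.28 (−1.03 without Aspp1) and the histone demethylase gene Kdm6b at −0.40 (−0.75 without Aspp1), and Wrap53, 28.9 kb away on the other side, was at 0.10.

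**Figure D5:**
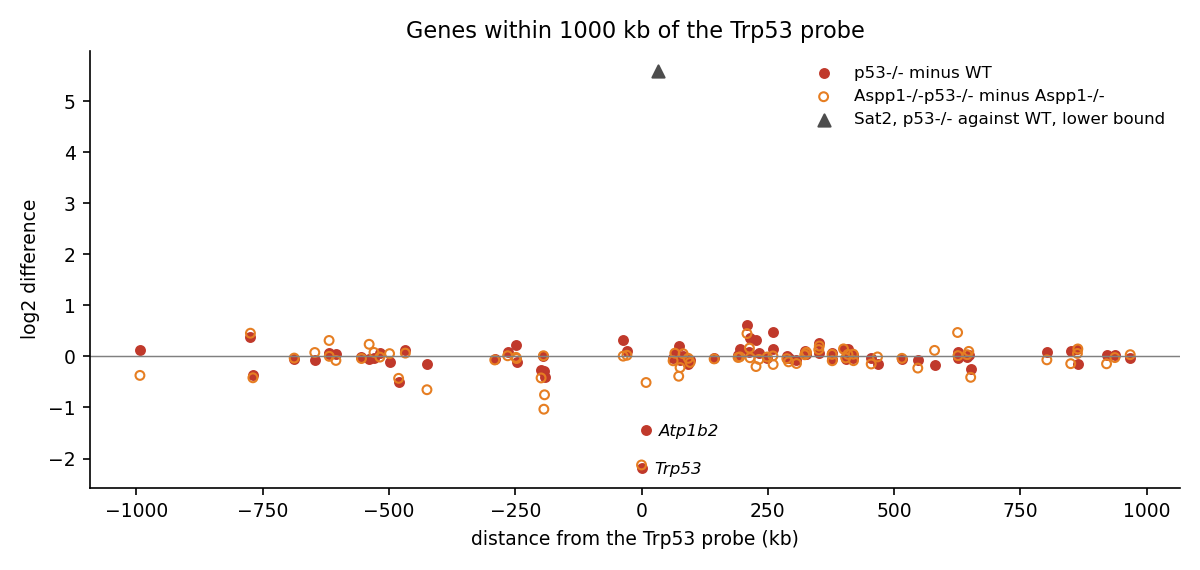
Log2 difference against distance from the Trp53 probe (kb) for measured genes within 1000 kb, with p53-/- minus WT as filled points, Aspp1-/-p53-/- minus Aspp1-/- as open points and the lower bound for Sat2 as a triangle. Trp53, Atp1b2 and Sat2, which lie within 34 kb, stand apart among the filled points and the bound, while among the open points Tmem88 (−1.03) and Kdm6b (−0.75) lie farther from 0 than Atp1b2 (−0.51).

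Genes of cell identity and cell state gave small medians on the p53-/- array. Stem cell identity genes had a median of −0.01 with 15 of 34 above 0 and none at 1.5-fold, and Runx1 was at −0.29, Hlf at −0.24 and Hoxa9 at 0.34. Genes of G1/S (median 0.02), G2/M (−0.02), DNA damage response (0.04, 23 of 29 above 0) and oxidative phosphorylation (0.02) had no member at 1.5-fold. Of all genes 57.3% lay above 0. The 32 ribosomal protein genes were all below 0, between −0.21 and 0.00, with a median of −0.07, while in the pair without Aspp1 17 of 32 lay above 0. Over all 368 genes with a geometric mean signal of 50000 or more on these arrays, 311 lay below 0, with a median of −0.07. Quiescence genes, several of them shared with the lists above, had a median of −0.07 with Aspp1 and −0.43 without.

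Granulocyte genes had a median of −0.15, with 14 of 18 measured below 0 (77.8%, beside 42.7% of all genes) and none at 2-fold. In the pair without Aspp1 all 16 measured were below 0, with a median of −1.40. There 11 were at least 2-fold lower, beside 0.848% of all genes. S100a8, a subunit of calprotectin, read 15936 on the p53-/- array, against 18744 on the WT array (−0.26), and 5418 on the Aspp1-/-p53-/- array, against 15697 on the Aspp1-/- array (−1.38). Retnlg, a resistin-like protein of neutrophils, was at −0.59 and −2.45 and lactoferrin (Ltf) at −0.26 and −1.67. In p53-/- against WT, 12 of 15 B lineage genes were above 0 (80%, beside 57.3% of all genes), with a median of 0.15. Vpreb3 at 0.44 and the surrogate light chain gene Igll1 at 0.42 led these. Monocyte and dendritic genes were above 0 in 12 of 15 (80%) with a median of 0.16, led by Cd14 at 0.46. In the same comparison stromal and endothelial genes had 7 of 9 below 0 with a median of −0.21, with Cxcl12 (71.4 on the p53-/- array, against 178 on the WT array), Col1a2 at −0.77 and Vcam1 at −0.68 lowest, and Col1a1, Col3a1 and Cdh5 not measured on both arrays. The part of these cell types in the falls described above was not tested.

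Single members of stress pathways stood out from quiet lists. Ddit3, the stress factor Chop, read 1237 on the p53-/- array, against 2188 on the WT array (−0.85), and differed by −0.96 without Aspp1, beside Chac1, Herpud1 at −0.42 and Atf4 at −0.33 in an integrated stress response list with a median of −0.09. Bcl2l11, which encodes the BH3-only protein Bim, was at −0.71 and −0.83 in the pairs with and without Aspp1, in a BCL2 family list with a median of 0.07. S1pr1, the sphingosine-1-phosphate receptor of cell egress, was at −0.74 and −0.92. Nqo1, an NRF2 target, read 179 on the p53-/- array, against 97.8 on the WT array (0.85), but 0.12 without Aspp1, and the small heat-shock protein gene Hspb1 was at 0.79 with Aspp1 and −0.14 without.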

How the data were processed

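The deposited scanner files hold 1-colour spot intensity, written by Feature Extraction 10.7.3.1 of Agilent per the file headers (design 028005, probe positions in mm9), with background already subtracted on a linear scale and, as other deposited values, flags for spots well above background, saturated or outlying. The authors' value table holds log2 values whose difference between these arrays correlated at r = 1 with the scanner files' over 26465 probes; its column medians were 0.03 for p53-/-, −0.07 for WT, 0.05 for Aspp1-/-p53-/- and −0.04 for Aspp1-/-, and how the authors centred it was not stated.

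Control and outlier spots were dropped, spots of a probe averaged, and the log2 processed intensity set relative to the array's 75th percentile. Probes were named through RefSeq by accession (26760), symbol (3818) or synonym (639), and 24458 had no name; of 8534 unnamed probes measured on both arrays, 144 were at least 2-fold higher and 93 lower. A gene was its brightest probe well above background on both arrays, in Python 3.11.15, with normexp and quantile alternatives in R 4.3.3 and limma 3.58.1. The calculation was tested on simulated data.

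Genes named are the p53 and ASPP family, the 15 largest differences each way, members of 37 gene lists past 2-fold or else the 5 largest (p53 targets and Trp53 neighbours freely), and 5 bounds each way. Other genes were picked after their values were seen. Some genes that these rules name are not reported here. Members and lists were chosen with earlier results of these data known. Promoters are from RefSeq (GRCm38.p6).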

Additional observations from a re-analysis of the deposited data

Results flagged for a closer look

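Genes of the report that differed in opposite directions in the 2 pairs of arrays, by at least 2-fold in 1 pair and past 0.3 on the log2 scale in the other, were Fas, Ncam1, Utp14b, 2900024J01Rik, 5830444B04Rik and Gm7969. Each pair is 1 array against 1 array, and the difference between pairs was not tested. Fas was at −0.36 in p53-/- minus WT and 1.57 in Aspp1-/-p53-/- minus Aspp1-/-. Ncam1, a neural cell adhesion molecule, was at 1.74 and −0.50, and Utp14b at 1.31 and −0.37. 2900024J01Rik was at −1.41 and 0.61, 5830444B04Rik at −1.46 and 0.37, and Gm7969 at −1.36 and 0.57. A further Gm7969 probe did not follow this: it read 40.5 on the p53-/- array, against 20.5, not well above background, on the WT array, and 44.1 on the Aspp1-/-p53-/- array, against 44.3 on the Aspp1-/- array.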

How the results depend on the processing

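With 1 array per genotype no replicate could be left out, so precision is limited by the number of arrays. No paired analysis was possible because the genotypes share fewer than 2 replicate numbers, and no fit over both pairs of arrays was made. The Trp53 difference stayed past 2-fold under every alternative, between −2.24 with quantile normalization and −1.82 with normexp, and no list median of the report changed sign from 0.1 or more in size, while that of the EGR and NR4A factors moved to −0.37 with bounds, against −0.17.

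The counts rested on dim probes. Against 69 genes higher and 59 lower at 2-fold (53.9% of calls higher) and 198 and 201 at 1.5-fold, normexp gave 30 and 28, and 83 and 104, with 18 falls and 0 rises also at 2-fold in the pair without Aspp1, where 28 and 6 stood. A mean signal of at least 100, chosen after seeing the data, gave 39 rises, 2 of them also at 2-fold in that pair, and 93 and 130 genes at 1.5-fold. Probes well above background on all 4 arrays gave 44 rises (48.4% of calls higher). Bounds from probes well above background on 1 array gave 346 rises and 149 falls (69.9% higher), and 574 and 362 at 1.5-fold. On all 4 arrays other probes stood for Etl4, Zfp423 and Zfp667, which turned to −0.01, −0.17 and −0.65. Of the 127 genes past 2-fold besides Trp53, 49 stayed past it in every alternative that measured them, 26 of 69 higher and 23 of 58 lower.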
